A study of Mus musculus with 6 samples.

Results

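Lining synovial fibroblasts were taken from droplet-based single-cell RNA sequencing of mouse knee synovium. They were chosen by raw counts of unique molecular identifiers (UMIs, tags that let amplified copies of a transcript be counted once). A member had at most 10% mitochondrial UMIs, at least 5 UMIs of Col1a2 and Dcn together, no Ptprc or Pecam1, at most 1 Tyrobp, and at least 3 UMIs of Clic5, Tspan15, Col22a1 and Htra4 together. The rule found 2521 cells, 22.6% of the 11148 fibroblasts and 13.6% of the 18491 barcodes. The other 8627 fibroblasts passed the same steps but had fewer than 3 UMIs of those 4 genes.

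Lining fibroblasts form the thin layer of the synovium that faces the joint space. Together with macrophages they bound the cavity and secrete lubricin (encoded by Prg4) and hyaluronan, while fibroblasts of the sublining lie deeper, around vessels and in loose connective tissue. In inflamed joints lining cells are known as a source of matrix-degrading enzymes. Notch3 is a receptor that ligands on neighbouring cells activate; its cleaved inner part acts with the DNA-binding protein Rbpj on targets such as Hes and Hey genes, and in vessel-bearing tissue mural cells carry much of it.

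The study asked what Notch3 does in synovial fibroblasts in health and in arthritis. Each of the 6 groups was a single library, made from the pooled knee tissue of 10 mice; living cells were sorted with no gate for a cell type. The healthy groups were wild type and Notch3-/- knockout. Arthritis was induced by transfer of serum from K/BxN mice, and the 4 arthritic groups were wild type, Notch3-/- knockout, isotype control antibody and anti-Notch3 antibody (anti-Notch3 mAB). Age, strain, antibody dose and sampling day are not given in the sources used here, nor is the part of the gene that the knockout removes, and serum transfer bypasses the immune priming of the recipient. Lists of 6 values below run from the healthy wild type and its knockout through the arthritic wild type and its knockout to the isotype and anti-Notch3 libraries ("library order"). The study's 3 pairs are the healthy genotype pair, the arthritic genotype pair and the antibody pair, and "targeted" means knockout or anti-Notch3.

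Lining cells numbered 217, 896, 389, 212, 596 and 211 in library order, and their summed UMIs ranged from 1438197 to 5948410. Levels are CPM, counts per 1000000: a gene's UMIs over all UMIs of the lining cells of a library, with exact Poisson intervals at 95% that cover counting error only. The median UMIs per cell were 10445, 6433.5, 7915, 6489, 8561.5 and 8223, against 7977.5, 4354.5, 5116, 4372, 7219.5 and 5582 in the other fibroblasts. Library tags are adjacent numbers in each arthritic pair but not in the healthy one, where a batch cannot be told apart from genotype. Between libraries, 5 to 29 barcode sequences were shared, at most 0.974% of the smaller library. Macrophage markers summed to 21.6 to 106 CPM in lining cells and endothelial markers to 41.1 to 66.8, while mural markers summed to 57.2 to 254 with no marker of these lists at 0 in every library. In other fibroblasts mural markers summed to 19.9 to 324 CPM, less than in lining in every library but arthritic wild type. Chondrocyte markers, mostly Comp, summed to 359 to 2915 CPM and osteoblast markers, mostly Bglap2, to 118 to 650, and their part in the results below was not tested.

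The label was borne out by Prg4, a lining marker that the rule did not use. Prg4 (lubricin, chromosome 1, 150449412 to 150466165, minus strand, protein coding) was at 63499, 66354, 22815, 56796, 36122 and 84784 CPM in the lining cells in library order. In the other fibroblasts it was at 964, 1562, 2296, 738, 1842 and 1119 CPM. Within libraries it was 9.93-fold to 76.9-fold higher in the lining, and the ranges of the lining and of the other fibroblasts did not overlap. From 99.2% to 100% of lining cells had a Prg4 UMI, but so did 39.4% to 79.5% of other fibroblasts. Among the sublining markers, Thy1 was at 10.99 to 33.1 CPM in lining cells and 145 to 192 in other fibroblasts. Not all members of the sublining list went this way: 12 of 18 measured were at least 2-fold lower in lining in every library. Sfrp4 was not, and under isotype it was higher in lining than in other fibroblasts.

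The rule's 4 genes are described here without a test, because they chose the cells. Clic5 (a chloride channel family protein, chromosome 17, 44188584 to 44280172, plus strand) was at 448, 1085, 156, 825, 273 and 855 CPM. Tspan15 (a tetraspanin membrane protein, chromosome 10, 62185396 to 62231251, minus strand) was at 314, 808, 129, 827, 218 and 534 CPM. Both were higher in the 3 targeted libraries than in the 3 untargeted ones. Col22a1 (a collagen of tissue junctions, chromosome 15, 71795795 to 72034227, minus strand) was at 194, 498, 339.5, 440.1, 508 and 502 CPM, lowest in the healthy wild type. Htra4 (a secreted serine protease, chromosome 8, 25024929 to 25038962, minus strand) was at 3213, 1963, 2009, 2781, 1811 and 2011 CPM and had the most UMIs of the 4 genes in every library. All coordinates are on mm10, and all these genes are protein coding.

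**Figure D1:**
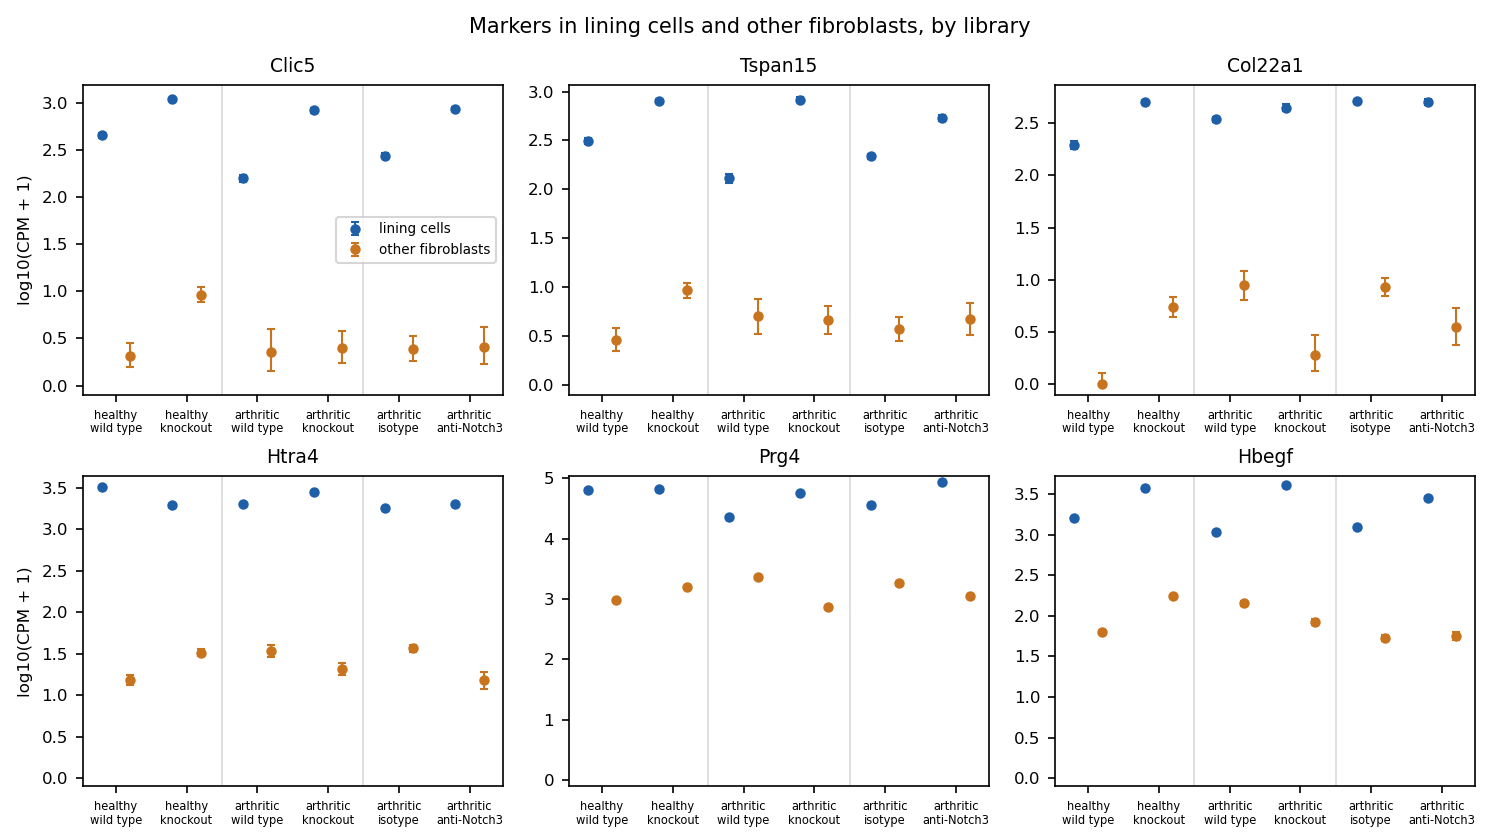
Levels of the 4 rule genes, Prg4 and Hbegf in lining cells and other fibroblasts of each library, as log10(CPM + 1) with exact Poisson intervals at 95%. Prg4 lies between 22815 and 84784 CPM in lining cells and between 738 and 2296 CPM in other fibroblasts.

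At the rule's threshold, 179 members had exactly 3 marker UMIs and 380 fibroblasts had exactly 2 and stayed outside. Prg4 in the cells just outside was at 4130 to 12547 CPM, and in members with 3 or 4 marker UMIs it was at 7921 to 31497. Members with at least 10 marker UMIs had 27418 to 92288 CPM. Lum, a collagen-binding proteoglycan, was lower at 10 or more marker UMIs than at 3 or 4 in every library. The step was steepest under anti-Notch3, from 2501 to 170.3 CPM, and smallest in arthritic wild type, from 2369 to 1764 CPM with 2808 between, and in healthy wild type Lum was at 2229, 3094 and 1267 CPM over the 3 bands. Cells of other types also reached the threshold. At least 3 marker UMIs were found in 4% to 6.84% of endothelial cells and in 0.273% to 3.94% of myeloid cells. In healthy wild type all 8 such endothelial cells reached it without Htra4. Clic5 was at 27.4 to 122 CPM in endothelial cells and 1.08 to 8.21 in other fibroblasts. With at least 5 UMIs of Col1a2 and Dcn also required, 0% to 2.05% of endothelial cells were left. The source of these UMIs was not tested, and free RNA and doublets cannot be told apart here. The myeloid cells had median UMIs that ranged from 3662 to 7388.

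The makeup of the gated cells differed between libraries. Some members had Htra4 UMIs and none of Clic5, Tspan15 or Col22a1, and they made up 42.4% of the gate in healthy wild type (Clopper-Pearson interval 35.7 to 49.3) against 9.04% in healthy knockout (7.24 to 11.1). In the arthritic genotype pair they were 27.0% (22.6 to 31.7) of wild-type and 23.6% (18.0 to 29.9) of knockout members. Under isotype they were 20.1% (17.0 to 23.6) and under anti-Notch3 4.74% (2.30 to 8.54). Members with all 4 genes were 30.0%, 64.0%, 17.5%, 58.0%, 33.1% and 66.8% in library order, higher in each targeted library than in each untargeted one.

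For Prg4, members with Htra4 alone stood between the other members and the remaining fibroblasts. Their Prg4 was at 20163, 11913, 8842, 8820.0, 7440.4 and 32945 CPM, against 88756, 70586, 27935, 67631, 43719 and 87065 in members with another marker. Their Lum was at 3010.2, 2941, 3586, 1800.2, 4176 and 2033 CPM, against 886, 211, 1450.5, 253, 1462 and 294. In each library Prg4 was lower and Lum higher in the members with Htra4 alone. Comp, a cartilage and tendon matrix protein, was at 668 to 5910.2 CPM in them and 169 to 1454 CPM in the members with another marker. Rab37, a small GTPase, was at 0 to 2.41 CPM against 18.1 to 83.5 CPM. These levels describe the same cells that the rule selected and carry no test.

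**Figure D2:**
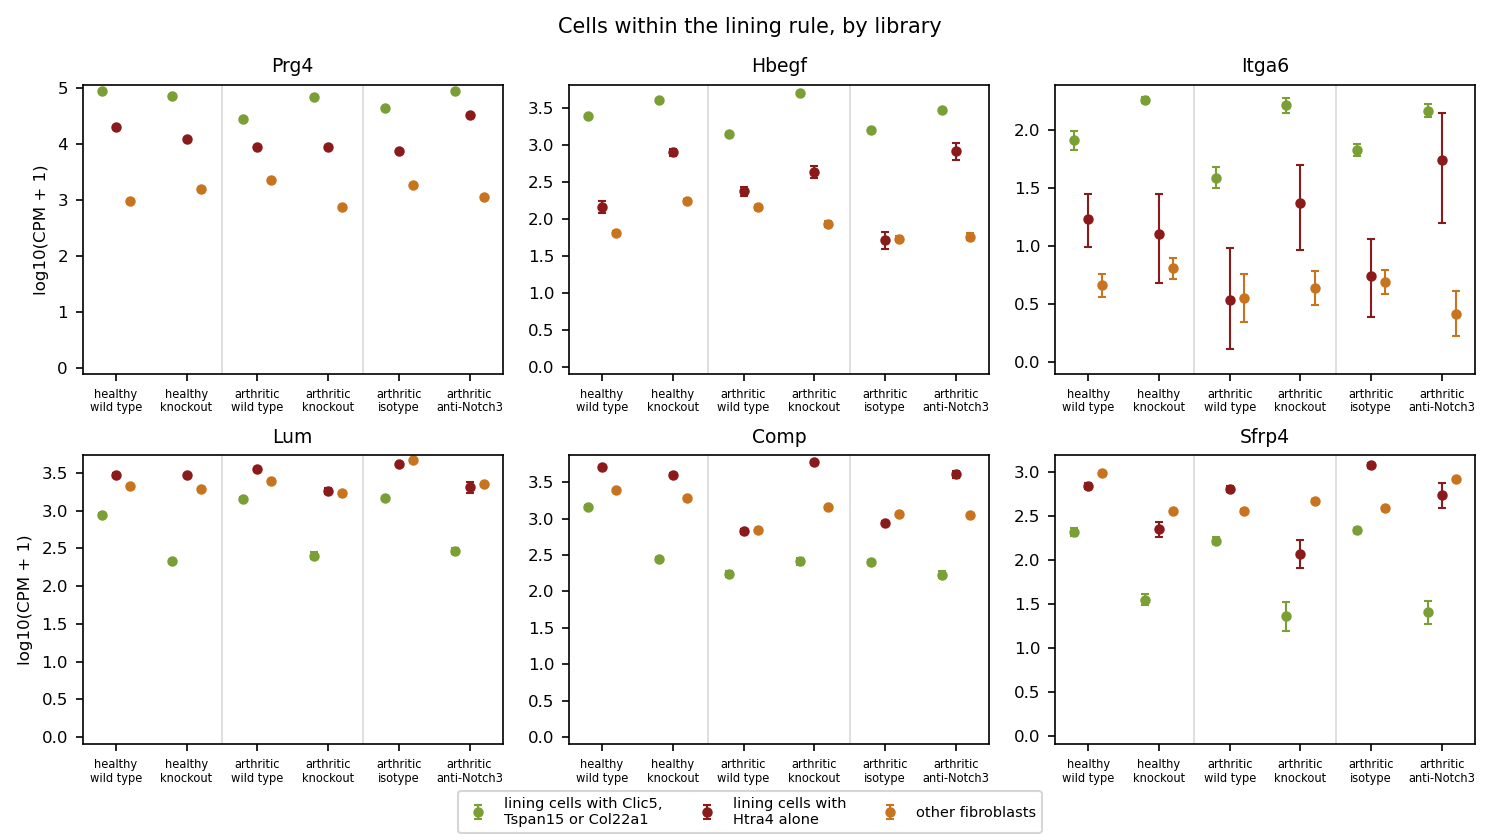
Levels of Prg4, Hbegf, Itga6, Lum, Comp and Sfrp4 in 3 sets of fibroblasts of each library (members with Clic5, Tspan15 or Col22a1, members with Htra4 alone, and other fibroblasts), as log10(CPM + 1). Members with Htra4 alone have less Prg4 and more Lum than the other members in all 6 libraries.

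The share of lining cells among fibroblasts did not move in the same direction in the 3 pairs. It was 12.5% in healthy wild type (Clopper-Pearson interval 10.95 to 14.1) and 25% in healthy knockout (23.6 to 26.5). In arthritis it was 37.8% in wild type (34.8 to 40.8) and 12.5% in knockout (10.96 to 14.2). Under isotype it was 29.1% (27.1 to 31.1) and under anti-Notch3 20.1% (17.7 to 22.7). The share was thus higher with Notch3 targeted in the healthy pair and lower in both arthritic pairs, with 1 library per group and no replicate check. With Htra4 left out of the rule, the shares were 4.65%, 21.2%, 17.3%, 8.66%, 17.7% and 17.7%, and the difference within the antibody pair went from -8.97 to 0.0235 percentage points.

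**Figure D3:**
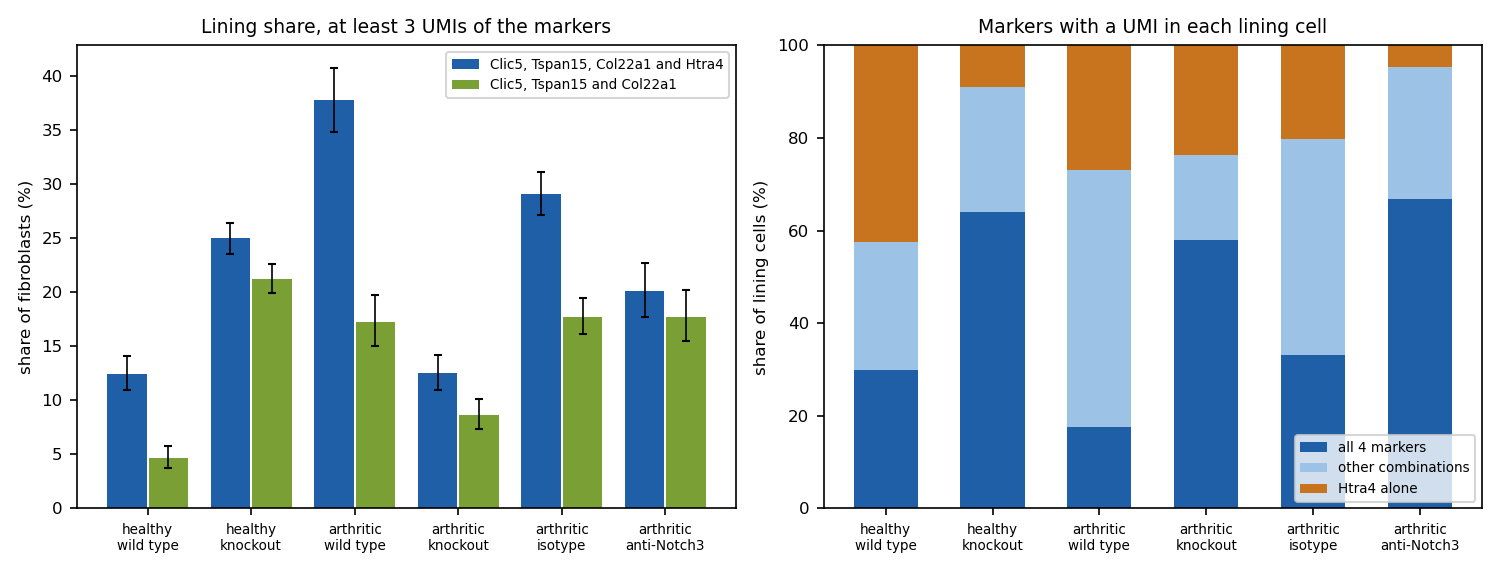
Left, lining cells as a percentage of fibroblasts in each library by the full rule and with Htra4 left out, with exact binomial intervals at 95%. Right, makeup of the gated cells, where members with Htra4 alone range from 4.74% under anti-Notch3 to 42.4% in healthy wild type.

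Besides the 4 rule genes, lining cells were marked by a set of secreted and enzymatic genes. Of 4058 genes with at least 100 UMIs in either set in every library, 50 (1.23%) were at least 2-fold higher in lining than in other fibroblasts in all 6 libraries, and 127 (3.13%) were at least 2-fold lower. These counts use the contrast that the rule was built on and are a description. Gchfr, which regulates synthesis of the cofactor tetrahydrobiopterin, was 24.0-fold to 323-fold higher. F13a1, a subunit of the clotting factor that crosslinks fibrin, was 11.2-fold to 143-fold higher. Hbegf, a ligand of the EGF receptor, was 7.58-fold to 50.02-fold higher. Aldh1a3, an enzyme of retinoic acid synthesis, Sema3a, a guidance cue, Megf10, an engulfment receptor, Pcsk6, a proprotein convertase, and Matn4, a matrix protein, were all at least 4.88-fold higher, as were Bglap2 and Cystm1.

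The lowest genes in the lining included several of the sublining. Tnmd, a tendon membrane protein, had no UMI in the lining of healthy wild type and under anti-Notch3 and was 26.1-fold lower than in other fibroblasts in healthy knockout, where the gap was smallest. The 7 tendon markers as a whole were not lower throughout: with Chad foremost they summed to 929.97 CPM in lining and 246 in other fibroblasts of healthy wild type, and to 821 and 273 in arthritic knockout. Ccl11, an eosinophil-attracting chemokine, was 13.3-fold lower in arthritic knockout, the library with the smallest gap. Mfap4, Lsamp, Fst, Cldn10, Dkk2, Ccl8, Col6a6 and Apod followed, each 11.3-fold lower or more in its library of smallest gap. Of 18 measured genes in a list of sublining genes, 12 were at least 2-fold lower in all 6 libraries, among them Thy1, Cd34, Pi16 and Clec3b. Among 10 measured lining genes outside the rule, Prg4, Hbegf and Fn1 (fibronectin) were at least 2-fold higher in all 6. For Has1, which makes hyaluronan, the lining levels were 636, 1845, 614, 778, 482 and 679.8 CPM.

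Notch3 itself was barely present in lining cells. Its UMIs numbered 0, 2, 4, 1, 11 and 0, or 0, 0.336, 1.29, 0.695, 2.07 and 0 CPM, with upper Poisson bounds from 1.21 to 3.87 CPM. In other fibroblasts it was at 6.70, 0.325, 12.6, 0.152, 3.20 and 1.78 CPM. So few UMIs check the genotype labels poorly in the lining alone. Of the other receptors, Notch2 was at 21.2 to 45.6 CPM and Notch1 at 1.70 to 4.85. The target Hes1 was at 91.6, 105, 77.9, 165, 59.8 and 41.4 CPM, higher in both knockouts than in their wild types and lower under anti-Notch3 than under isotype. Hey1 had 4 UMIs in healthy wild type, 2 under isotype and none in the other 4 libraries.

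The first test asked which lining genes differed with Notch3 targeting across the 3 pairs. edgeR's quasi-likelihood test used the 6 sums of raw counts with terms for pair and for targeting. It treats knockout and antibody as repeats and has 2 residual degrees of freedom. No group has a second library, so its spread comes from the disagreement between pairs. edgeR moderates each gene's spread with that of all genes. At a Benjamini-Hochberg adjusted p under 0.05, 114 of 10280 genes (1.11%) changed; 40 rose with targeting (0.389%) and 74 fell (0.72%). All 40 that rose were higher in all 3 pairs, and 69 of the 74 that fell were lower in all 3. The calls favour genes on which these same pairs agree, so this is no separate check. The median log2 change over all genes was -0.01. The count depended on the gate: with Htra4 left out of the rule, 19 genes were called, 14 of them among the 114. All 106 of the 114 that could be tested had the same sign, but the cells left are a subset of the same members. The shared sign is thus no separate check.

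Mmp3 was the only matrix-degrading gene among the 10 largest falls. Of 15 metalloproteinase and inhibitor genes tested, Mmp3 and Adamts2 fell and none rose (median log2 change -1.19), and of 20 cytokine, chemokine and acute-phase genes, Cxcl5, Saa3 and Lcn2 fell and none rose (median -1.68). In the healthy pair alone the median of the cytokine list was 0.24, over the 9 members with at least 100 UMIs in that pair. Mmp3, the matrix-degrading enzyme stromelysin (chromosome 9, 7445822 to 7455975, plus strand), was at 114 and 7.23 CPM in healthy wild type and knockout, 1122 and 20.9 with and without Notch3 in arthritis, and 549.6 and 1.73 under isotype and anti-Notch3. Every untargeted library was above every targeted one, and Mmp3 fell by 5.599 on the log2 scale (SE 0.639, edgeR adjusted p = 0.0138). Of the healthy wild-type UMIs, 60.6% lay in 1 cell, and the level was 45.2 CPM without it. Leaving Htra4 out of the rule gave a change of -4.84 (edgeR adjusted p = 0.0575). In cells thinned to 2000 UMIs, Mmp3 was detected in 20.2% of arthritic wild-type lining cells and 5.1% of the myeloid cells of that library.

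The promoter of Mmp3 was searched for the AP-1 motif TGANTCA (bound by Fos and Jun proteins) and for GTGGGAA, a motif of Rbpj, on both strands. The sequence is RefSeq's on GRCm38.p6, the 250 bases before the start on the plus strand, chr9:7445572-7445821, and capitals mark the AP-1 match.

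Mmp3: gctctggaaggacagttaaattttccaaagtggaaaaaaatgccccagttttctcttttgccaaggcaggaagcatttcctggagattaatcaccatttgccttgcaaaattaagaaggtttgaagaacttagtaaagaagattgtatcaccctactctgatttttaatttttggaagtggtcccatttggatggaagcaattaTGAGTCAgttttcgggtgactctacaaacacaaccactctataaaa

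The full window of 300 bases held 1 AP-1 match and no GTGGGAA. Over 27025 genes with promoters in the RefSeq table, 8.97% held TGANTCA and 7.25% held GTGGGAA in windows of that length. Of the genes called across the 3 pairs, 50 of the 74 that fell and 28 of the 40 that rose had a promoter in the table. TGANTCA was found for 5 (10%) and 4 (14.3%) of them, and GTGGGAA for 2 (4%) and none. In the arthritic pairs described below, TGANTCA was found for 23 of 202 genes that fell (11.4%) and 17 of 118 that rose (14.4%), and GTGGGAA for 17 (8.42%) and 11 (9.32%). A match describes letters in the window and shows no binding.

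Cxcl5 and Saa3 were far higher in the arthritic wild-type and isotype libraries than in the other 4. Cxcl5, a neutrophil-attracting chemokine (chromosome 5, 90759360 to 90761624, plus strand), had 0, 0, 783, 0, 525 and 0 UMIs, or 253 CPM in arthritic wild type and 99.0 under isotype. Against the floor of 3 UMIs per library it was at least 121-fold lower in the arthritic knockout and at least 57.4-fold lower under anti-Notch3 (edgeR adjusted p = 0.00625 across the 3 pairs). DESeq2 did not call it (adjusted p = 0.358). Cxcl5 UMIs were found in 91 arthritic wild-type and 64 isotype cells. Saa3, an acute-phase serum amyloid (chromosome 7, 46711998 to 46715700, minus strand), was at 1.27, 1.01, 2227, 36.2, 1217 and 17.3 CPM. A single cell held 98.1% of its arthritic knockout UMIs, and the level there was 0.698 CPM without that cell. Saa3 fell by 5.47 (SE 0.827, edgeR adjusted p = 0.0315), a call not kept with Htra4 left out (adjusted p = 0.108) or without each gene's top cell (adjusted p = 0.0544).

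Tnfsf11, the gene of RANKL (a signal for osteoclast formation), had 1, 1, 71, 0, 92 and 0 UMIs and fell across the pairs (edgeR adjusted p = 0.0363). In the arthritic genotype and antibody pairs it was at least 11.01-fold and at least 10.1-fold lower with targeting. With Htra4 left out, its adjusted p was 0.222. It was the only gene of 8 tested in a list of bone-resorption genes to pass; Csf1, a growth factor of macrophages and osteoclasts, was at 172, 96.0, 50.1, 93.9, 44.3 and 81.7 CPM and did not. H19, an imprinted long RNA, was at 0, 0.168, 104, 1.39, 104 and 1.15 CPM, and fell by 5.91 (SE 0.585, edgeR adjusted p = 0.00839; 0.101 at 2 marker UMIs). Olfr810, annotated as an olfactory receptor, was at 0.424, 0, 58.5, 0, 57.9 and 0.575 CPM (edgeR adjusted p = 0.00566). Cxcl3 and Il13ra2 were found only in the arthritic wild-type and isotype lining, with 61 and 63 and with 78 and 36 UMIs. Both passed in edgeR (adjusted p = 0.0442 and 0.0463), and DESeq2 called neither.

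**Figure D4:**
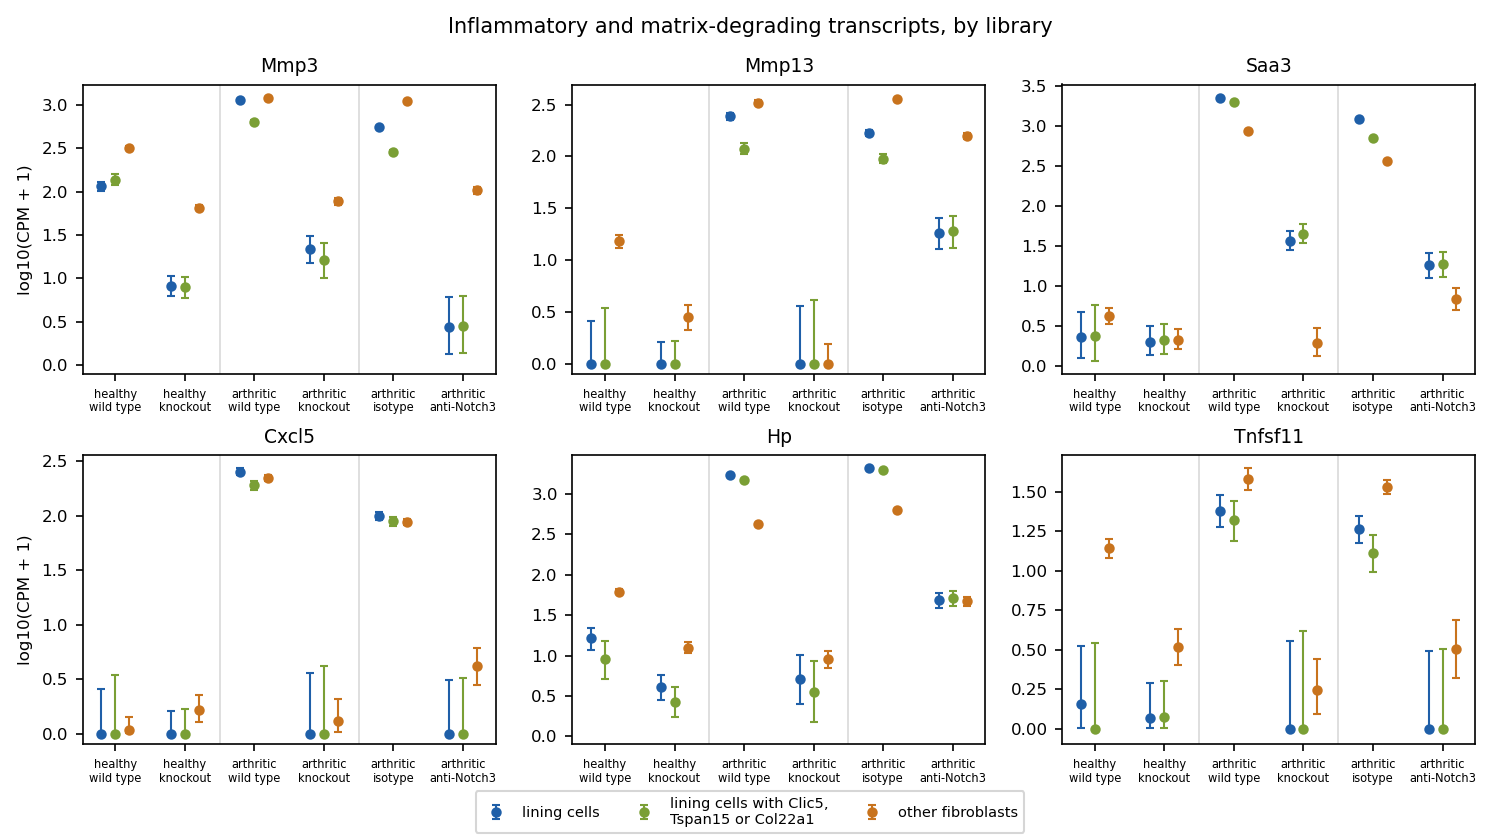
Levels of Mmp3, Mmp13, Saa3, Cxcl5, Hp and Tnfsf11 in lining cells, in lining cells with Clic5, Tspan15 or Col22a1, and in other fibroblasts of each library, as log10(CPM + 1). In the lining, the arthritic wild-type and isotype libraries are highest for each gene, with Mmp3 at 1122 and 549.6 CPM.

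Ifi202b, an interferon-inducible gene, had 62 UMIs in healthy wild type, 136 in arthritic wild type and none in the other 4 libraries. It passed across the 3 pairs (edgeR adjusted p = 0.0115) on the genotype pairs alone, and DESeq2 did not call it (0.587). The isotype library had none either, so no change with the antibody could be seen.

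Matrix genes fell less steeply. Lox, which crosslinks collagen, was at 296, 57.8, 976, 102, 476 and 62.7 CPM in library order. It fell by 2.86 (SE 0.249, edgeR adjusted p = 0.00638). Lum was at 1668, 408, 2023, 538, 2030.3 and 368 CPM, with no overlap between untargeted and targeted libraries. Lum fell by 2.16 (SE 0.216, edgeR adjusted p = 0.00839). The collagen gene Col3a1 was at 4175, 1837, 8753, 1332, 9072 and 2258 CPM and fell by 1.99 (SE 0.334, edgeR adjusted p = 0.0445). Of 25 matrix genes tested, these 3 fell and none rose, with a median log2 change of -1.23 against -0.01 for all genes. The healthy ratio of Lox depends on the gate: with Htra4 left out it was 0.28 on the log2 scale in place of -2.35, and the calls of Lox and Col3a1 were not kept (adjusted p = 0.269 and 0.273), while that of Lum was (0.0273).

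Sfrp4, a secreted Wnt modulator that marks a sublining population (chromosome 13, 19623104 to 19632994, plus strand), was at 384, 47.7, 293, 39.6, 418 and 46.6 CPM. Untargeted and targeted libraries did not overlap, and Sfrp4 fell by 3.04 (SE 0.193, edgeR adjusted p = 0.00369), the smallest p of any gene in this test. In members with another marker than Htra4 they did not overlap either, at 206, 34.2, 165, 22.2, 215 and 24.6 CPM. In the other fibroblasts Sfrp4 was at 962, 356, 363, 470.0, 387 and 823 CPM, lower with targeting in the healthy pair and higher in both arthritic pairs. With 2 marker UMIs as the threshold, the change was -1.79 and did not pass (adjusted p = 0.124). It was the only 1 of 18 sublining genes tested to change across the pairs.

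Of the genes of lining identity, 2 rose. Hbegf was at 1583, 3795, 1072, 4111, 1256 and 2799.8 CPM, a rise of 1.43 (SE 0.238, edgeR adjusted p = 0.0442). Itga6, a laminin-binding integrin subunit, was at 56.8, 167, 28.5, 136, 53.4 and 142 CPM, a rise of 1.71 (SE 0.209, edgeR adjusted p = 0.0182). Each targeted library was above each untargeted one for both genes. They were the only 2 of 14 lining genes outside the rule to pass, with a median log2 change of 0.75; Prg4 did not, and neither call was kept with Htra4 left out (adjusted p = 0.409 for Hbegf and 0.0964 for Itga6). Smpd3, a sphingomyelinase, was at 31.4, 68.3, 10.7, 109, 7.17 and 59.2 CPM and rose by 2.42 (SE 0.416, edgeR adjusted p = 0.0463). Gpr1, a chemerin receptor, was at 49.2, 137, 20.4, 138, 23.0 and 114 CPM and rose by 2.14 (SE 0.258, edgeR adjusted p = 0.0180). Larger rises of genes with few UMIs were those of Retnla, Ecel1 and Nrn1l; Nrn1l had 1, 225, 13, 47, 9 and 16 UMIs and rose by 3.41 (SE 0.524, edgeR adjusted p = 0.0344). Of Retnla's 7 arthritic knockout UMIs, 85.7% were in 1 cell. None of Smpd3 (adjusted p = 0.195), Gpr1 (0.108), Nrn1l (0.0656) and Ecel1 (0.0866) kept its edgeR call with Htra4 left out, and Retnla did not at 2 marker UMIs (0.0599).

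Ier2, an immediate-early gene that tissue dissociation can induce, was at 442, 1597, 769, 1839, 433 and 909 CPM and rose by 1.37 (SE 0.231, edgeR adjusted p = 0.0445; 0.0575 with Htra4 left out and 0.0599 at 2 marker UMIs). It was the only 1 of 20 such stress genes to pass, and the list's median log2 change was 0.39. Fos was at 5512, 7235, 4455, 6181, 2918 and 4489.6 CPM, higher in the targeted library of each pair. The part of these genes in the other changes was not tested.

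Within arthritis alone, the genotype and antibody pairs gave more calls. A model with a separate effect for the healthy pair has 1 residual degree of freedom. It takes its spread from the disagreement between knockout and antibody, moderated over all genes, not from a gene's own values alone. In it, 457 of 10916 genes (4.19%) changed with targeting in the arthritic pairs; 167 rose (1.53%) and 290 fell (2.66%). Of these, 164 were higher and 289 lower in both pairs, which is no separate check, since the calls favour genes on which these pairs agree. In the healthy pair, 134 of the 167 and 200 of the 290 had the same direction. With Htra4 left out 247 genes were called, 225 of them among the 457, and DESeq2 called 199.

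The metalloproteinases that passed in edgeR in the arthritic pairs all fell, but not every call was kept under the alternatives. Of 17 metalloproteinase and inhibitor genes tested, 10 fell and 1 rose, with a median log2 change of -1.61 against -0.01 for all genes. Mmp2, Mmp3, Mmp23 and Timp1 kept their calls in DESeq2, with Htra4 left out and at 2 marker UMIs. Adamts2 kept its call under none of these. DESeq2 did not call Mmp12 or Mmp19 (adjusted p = 0.100 for Mmp19). With Htra4 left out, Mmp11 (edgeR adjusted p = 0.128) and Mmp14 (0.0589) were lost, as they were at 2 marker UMIs (0.0851 and 0.0528). Mmp3 fell by 6.57 (SE 0.471, edgeR adjusted p = 9.73e-05), also with Htra4 left out (5.79e-05). Mmp13, a collagenase, had 749 UMIs in arthritic wild type and 0 in arthritic knockout, at least 116-fold lower in CPM, and 895 and 30 in the antibody pair (edgeR adjusted p = 0.00543). All 30 UMIs under anti-Notch3 were in 1 cell, and DESeq2 did not call the gene. Mmp2, a gelatinase, went from 1037 to 173 CPM with the knockout and from 1294 to 268 with the antibody (edgeR adjusted p = 9.78e-04). The inhibitor Timp3 went from 27.2 to 184 and from 40.9 to 76.5 CPM, and rose by 1.78 (SE 0.368, edgeR adjusted p = 0.0259; 0.167 with Htra4 left out). Timp1, another inhibitor, was among the 10 that fell.

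Of 22 cytokine, chemokine and acute-phase genes tested, 9 fell and 1 rose in the arthritic pairs, with a median log2 change of -1.80 (-1.62 with Cxcl5 and Il1rn, at 0 in both targeted libraries, set at the bound that 3 UMIs give). Saa3 fell by 6.08 (SE 0.299, edgeR adjusted p = 3.87e-05), and Cxcl5 passed in edgeR (adjusted p = 4.16e-05) but not in DESeq2 (0.586). Hp, the acute-phase protein haptoglobin, went from 1705 to 4.17 CPM and from 2071 to 47.7 (edgeR adjusted p = 6.06e-04). Some members did not pass although they were lower with targeting in both pairs. Cxcl1, another neutrophil-attracting chemokine, was at 950.0 and 846 CPM in arthritic wild type and knockout and 425 and 162 under isotype and anti-Notch3 (edgeR adjusted p = 0.198). Slpi, a protease inhibitor, was at 1417 and 13.2 and at 847 and 386 CPM (edgeR adjusted p = 0.130). The gene that rose, Ccl11, had 2 and 47 UMIs in arthritic wild type and knockout but 1 and 0 under isotype and anti-Notch3, so its call rests on the arthritic knockout library. Among the largest rises and falls, calls that rest on 1 library or pair were also those of Cytl1, Ibsp and Myoc (arthritic knockout), Msmp and Mmp12 (arthritic wild type) and Ifi202b (the genotype comparison).

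Of 25 collagen and matrix genes tested, 15 fell in the arthritic pairs and none rose, with a median log2 change of -1.66. Col1a1 went from 3193 to 827 CPM and from 3978 to 1369 (edgeR adjusted p = 0.00563). Tnc, the matrix glycoprotein tenascin C, went from 168 to 9.04 and from 181 to 17.8 CPM (edgeR adjusted p = 1.33e-04). Postn, periostin, went from 78.9 to 9.04 and from 179 to 4.03 CPM (edgeR adjusted p = 5.75e-04). In each of these genes both targeted libraries were below both untargeted ones. In bulk sums, fewer cells with a transcript and less of it per cell cannot be told apart: in thinned cells Lum was detected in 58.0% of arthritic wild-type and 27.8% of knockout cells, and in 62.0% of isotype and 15.9% of anti-Notch3 cells.

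Of 22 growth factor genes tested, 9 fell in the arthritic pairs and Hbegf rose. Angptl4, Dkk3, Ereg and Inhba kept their calls in DESeq2, with Htra4 left out and at 2 marker UMIs. DESeq2 did not call Areg (adjusted p = 0.323), Pdgfrb (0.370) or Sfrp1 (0.747). Sfrp2 was not called at 2 marker UMIs (edgeR adjusted p = 0.529). Igf1, insulin-like growth factor, went from 77.3 to 22.3 and from 205 to 21.9 CPM (edgeR adjusted p = 0.00201; 0.0516 with Htra4 left out and 0.0553 at 2 marker UMIs). Angptl4, a secreted regulator of lipid metabolism, went from 301 to 18.1 and from 285 to 46.6 CPM (edgeR adjusted p = 0.00110). Of 19 interferon response genes, 6 fell (Ifit1, Ifit3, Irf7, Bst2, Ifi44 and Gbp2), with a median of -2.0005. Leaving Htra4 out of the rule kept the call of Bst2 alone among these 6, and DESeq2 kept those of Ifit1 and Ifit3, so no call was kept under both. List medians were -3.51 for the knockout and -0.94 for the antibody, each over the 12 members with at least 100 UMIs in the pair. These need not be the same members, so the medians are not a matched comparison. The difference between isotype and arthritic wild type, both with Notch3 intact, was itself -0.99 in the list's median, over 17 members chosen in the same way.

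Of 14 lining genes outside the rule, 5 rose in the arthritic pairs (Hbegf, Itga6, Rab37, Hspb7 and Timp3) and 4 fell (Tspan6, Vcam1, Pdpn and Cdh11). DESeq2 kept none of the 4 falls (adjusted p = 0.0931 to 0.401) and 4 of the 5 rises, losing Rab37 (0.125). Leaving Htra4 out of the rule kept Itga6, Hspb7 and Pdpn and lost Hbegf (0.181), Rab37 (0.204), Timp3 (0.167), Tspan6 (0.176), Vcam1 (0.394) and Cdh11 (0.639). Hspb7, a small heat shock protein, went from 13.9 to 147 and from 12.8 to 51.8 CPM, a rise of 2.66 (SE 0.299, edgeR adjusted p = 0.00144). Vcam1 and Cdh11 are adhesion molecules of synovial fibroblasts, and Pdpn, podoplanin, is a pan-fibroblast surface protein. Of 11 Notch pathway genes tested in edgeR, 0 passed and 4 had an unadjusted p under 0.05, with a median log2 change of 0.02. Jag1, a ligand, was at 16.5 and 8.34 and at 18.7 and 8.05 CPM (edgeR adjusted p = 0.106). In edgeR 0 of 13 proliferation genes passed (4 unadjusted), as did 0 of 11 lubrication and hyaluronan genes (2 unadjusted).

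**Figure D5:**
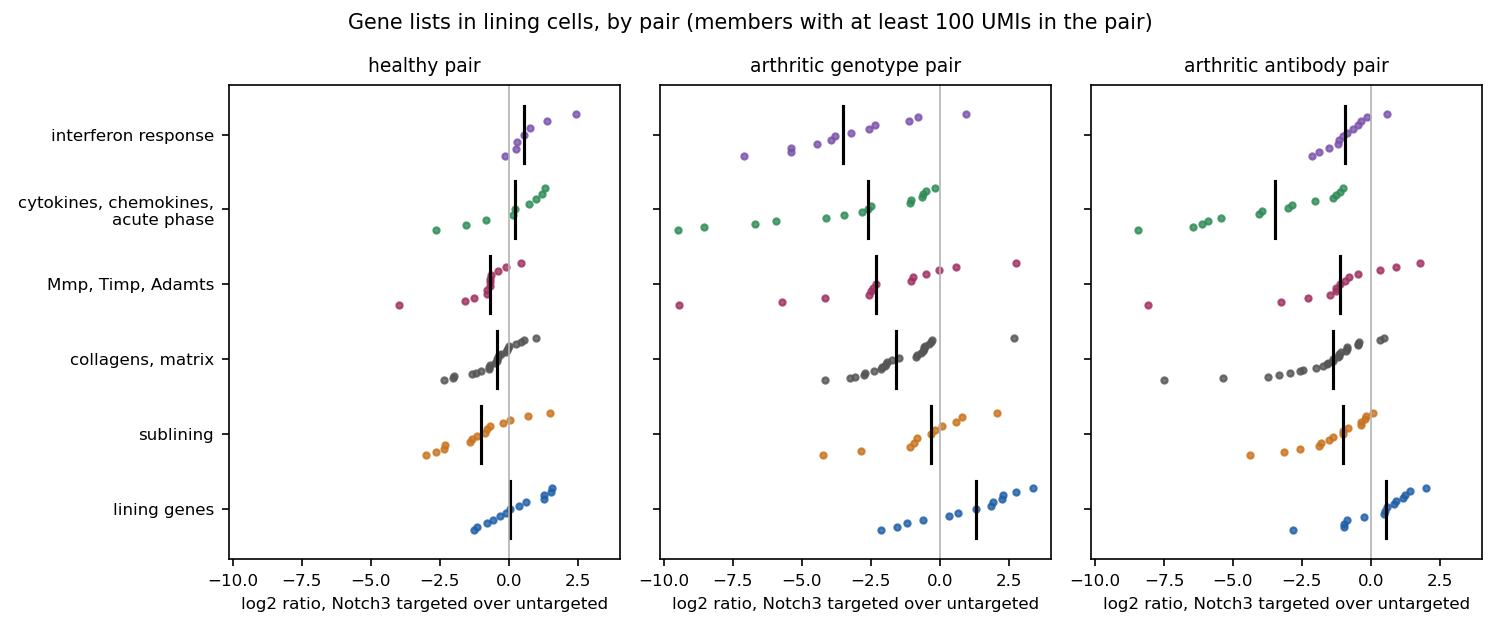
Log2 ratios of targeted over untargeted lining cells for the members of 6 gene lists in each of the 3 pairs, with the list median as a black line. Only members with at least 100 UMIs in a pair are shown, so the members differ between pairs, and a gene high in 1 library alone can enter. In the healthy, arthritic genotype and antibody pairs, the matrix list has medians of -0.43, -1.60 and -1.37 over 23, 24 and 25 members. The cytokine list has 0.24, -2.61 and -3.47 over 9, 15 and 14 members.

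Whether the Notch3 effect differed between arthritic and healthy joints was asked in the same model, added after the data had been seen. The difference passed for 43 of 10916 genes (0.394%), with 15 more positive (0.137%) and 28 more negative (0.257%) in arthritis. With median-of-ratios scaling the split was 59 and 66 of 125 genes. Leaving Htra4 out of the rule gave 27 calls, 14 of them among the 43. Postn was at 0.424 and 14.3 CPM in the healthy pair, higher in the knockout, and lower with targeting in both arthritic pairs, a difference of -9.25 (SE 0.975, edgeR adjusted p = 0.00992; 0.0533 with Htra4 left out). Pi16, a gene of adventitial fibroblasts, was at 0.848 and 12.9, 164 and 8.34, and 66.0 and 2.88 CPM, a difference of -8.29 (SE 0.592, edgeR adjusted p = 9.99e-04; 0.0773 at a threshold of 2 marker UMIs). Ptn, the growth factor pleiotrophin, was at 1.27 and 16.8, 138 and 13.9, and 100.1 and 9.78 CPM, a difference of -7.05 (SE 0.531, edgeR adjusted p = 9.99e-04). The healthy wild-type lining held 1, 2 and 3 UMIs of these genes, so the sizes rest on very few counts. Gsn, the actin-severing protein gelsolin, was at 11539 and 4374, 2242 and 8926, and 1811 and 4522 CPM, a difference of 3.02 (SE 0.496, edgeR adjusted p = 0.0418). It did not pass with Htra4 left out (2.02, adjusted p = 0.282) or at 2 marker UMIs (0.0892). Gsn was thus lower with targeting in the healthy pair and higher in both arthritic pairs. The lone healthy pair is assumed to vary like the arthritic pairs. A batch cannot be told apart from genotype in the healthy pair, which enters every one of these differences.

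Whether lining cells responded to Notch3 targeting differently from other fibroblasts was tested with both sets of sums, with library as a term. The effect differed for 202 of 12120 genes (1.67%), more negative in lining for 175 (1.44%) and more positive for 27 (0.223%). With Htra4 left out of the rule, 1 gene was called. Sfrp4 had a difference of -3.13 (SE 0.403, edgeR adjusted p = 0.00893). Aldh1a2, an enzyme of retinoic acid synthesis, was at 26.7, 3.53, 75.7, 0.695, 66.2 and 1.73 CPM in lining, and its difference was -3.98 (SE 0.576, edgeR adjusted p = 0.0119). H19 had a difference of -4.80 (SE 0.583, edgeR adjusted p = 0.00712). DESeq2 did not call H19 (adjusted p = 0.261), nor did edgeR at 2 marker UMIs (adjusted p = 0.05003). By list, the effect was more negative in lining for 6 of 25 matrix genes, 6 of 24 cytokine genes, 5 of 20 sublining genes and 4 of 17 metalloproteinase genes. Only Cemip, a hyaluronan-degrading protein, was more positive among 12 lubrication and hyaluronan genes (difference 2.24, SE 0.429, edgeR adjusted p = 0.0335).

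A difference between the healthy and arthritic libraries of both genotypes was also tested. With 1 library per group, arthritis cannot be told apart from library batch in it, nor in the healthy to arthritic ratios below. In edgeR 2 of 10280 genes (0.0195%) passed, both higher in arthritis; 642 had an unadjusted p under 0.05 and DESeq2 called 4. They were Cxcl5, with no UMI in either healthy library, and Olfr810, with 1, each with an edgeR adjusted p of 0.0405. DESeq2 called neither of them, nor did edgeR with 2 marker UMIs as the threshold (adjusted p = 0.0590 for both), and Olfr810 was not called without its top cells (0.136). Among 5323 genes with enough UMIs, 30.8% were at least 1.5-fold apart between arthritic and healthy wild-type lining, against 11.9% of 6273 between the knockouts (5.09% higher and 6.82% lower in arthritis); in wild type 14.4% were higher and 16.4% lower. The isotype and arthritic wild-type lining, both arthritic with Notch3 intact, were at least 1.5-fold apart for 15.5% of 6669 genes (9.07% higher under isotype and 6.4% lower). Within pairs, 11.6% of 6739 genes were at least 1.5-fold higher with targeting and 10.1% lower in the healthy pair. In the arthritic genotype pair it was 15.2% and 15% of 4651 genes, and in the antibody pair 6.42% and 11.6% of 6150. At least 1.5-fold lower in all 3 pairs were 104 of 4548 genes (2.29%) and higher 76 (1.67%), and with Htra4 left out 27 and 19.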

How the data were processed

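The files hold deposited raw counts, as UMIs by gene and cell barcode. The submitters' processing notes name Cell Ranger 3.0.2 and mm10. Every deposited barcode was read, and 414 with over 10% mitochondrial UMIs were left out. Scrublet (scanpy 1.11.5, expected rate 0.03) marked 107 doublets (0.592%), 9 in the lining, which were kept. Its score threshold of 0.25 was set after results were seen, since the automatic threshold varied with the number of threads.

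Counts were summed per library and tested with edgeR 4.0.16 (quasi-likelihood, TMM, filterByExpr, Benjamini-Hochberg, threshold 0.05); DESeq2 1.42.0 was an alternative. The edgeR p-values rest on the disagreement between pairs of single libraries, moderated over all genes. Pair ratios used a pseudocount of 0.5 UMIs and genes with at least 100 UMIs, and intervals are at 95%. Genes were named by rule: the markers, Notch3, the 10 largest rises and falls per effect among called genes (the 5 of smallest p where fewer than 5 passed), the 15 highest and 10 lowest lining genes, and members of lists that passed, with examples of many UMIs. Aldh1a2, Csf1, Cxcl1, Fos, Gpr1, Has1, Hes1, Jag1, Slpi and the genes compared within the gate were named as such examples or after their values were seen. The members and lists were chosen with earlier results of these data known. The edgeR script was checked on simulated data. 1 gene that the rule names is not reported here. Promoters came from RefSeq (GRCm38.p6).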

Additional observations from a re-analysis of the deposited data

Results flagged for a closer look

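The lining share of fibroblasts differed between pairs in direction. Targeted minus untargeted, it was 12.5 percentage points in the healthy pair, -25.3 in the arthritic genotype pair and -8.97 in the antibody pair; this difference between pairs was not tested, because each group has a single library. With each cell thinned to 2000 UMIs and the same threshold of 3 marker UMIs, the differences were 13.8, -14.8 and -1.33.

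The Notch3 effect differed between the arthritic pairs and the healthy pair for 43 genes, by a test of the difference itself with 1 residual degree of freedom. It differed between lining cells and other fibroblasts for 202 genes, by a test with 2 residual degrees of freedom.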

How the results depend on the processing

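Lining shares, in percent and in library order, were 14.9, 28.1, 42.5, 14.3, 34.9 and 22.7 with a threshold of 2 marker UMIs. With 5 they were 10.9, 22.8 and 32.4 in the first 3 libraries and 24.0 under isotype. With Htra4 left out (chosen after seeing the data) they were 4.65, 21.2, 17.3, 8.66 and 17.7 in the first 5. Thinned to 2000 UMIs, they were 14.3, 32.2, 16.6, 33.5 and 22.9 at 1 UMI in all but arthritic wild type, and 7.66, 21.4, 25.3, 10.5, 18.3 and 17.0 at 3 UMIs. At most 5% mitochondrial UMIs gave 26.8 under isotype. Other shares moved by less than their intervals.

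The 114 genes called across the 3 pairs became 761 with every gene with a UMI kept, 253 in DESeq2, 19 with Htra4 left out and 46 with no pair term (no replicate block). Leaving out a pair gave 23 (without the antibody pair) to 706 genes (without the healthy pair), and 362 without the arthritic genotype pair. The 457 genes of the arthritic pairs became 726 with median-of-ratios scaling, 1017 with every gene, 199 in DESeq2, 696 without doublets, 247 with Htra4 left out and 706 without the healthy pair. The 2 arthritis genes became 194 with every gene, 4 in DESeq2, 0 at a threshold of 2 marker UMIs and 1 without the antibody pair. The 202 genes that differed between lining and other fibroblasts became 553 with every gene, 1 with Htra4 left out, and 92 (without the antibody pair), 421 (without the arthritic genotype pair) or 873 (without the healthy pair). The 43 genes that differed between arthritic and healthy pairs became 125 with median-of-ratios scaling, 348 with every gene, 23 in DESeq2, 107 without doublets, 27 with Htra4 left out and 125 without each gene's top cell. With Htra4 left out, 214 genes were 2-fold lower in lining, and 27 and 19 were lower and higher in all 3 pairs. The cause of these shifts was not tested. The doublet score threshold was chosen after an automatic threshold, which varied between runs, had left the counts without doublets within 1.5-fold of the main ones.

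For the difference between lining and other fibroblasts, 4 gene values reversed: Mmp13 (0.047 in DESeq2, and from -2.19 without the healthy pair to 1.78 without the antibody pair), and, with Htra4 left out, Epyc (0.57) and Rsad2 (2.30). Over 222 gene results and 2134 alternatives, 1743 kept direction and side of the threshold, 375 lost the call and 12 gained it.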
